A study of Mus musculus with 4 samples.

Results

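Of 2402 windows of 1 Mb on the 19 mouse autosomes, 391 (16.3%) held no macroH2A island in either of 2 ChIP-seq maps of C2C12 cells. The windows were laid from position 3000000 of each chromosome (mm9) to the last full window before the end of its last island. A window was taken when no island of the day 0 or the day 5 list overlapped it by a single base. The windows were thus chosen by the absence of islands, which is not itself a finding, and covered length was 0 kb at both days in all 391. With the X chromosome, which is outside the rule, the grid held 2565 windows.

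C2C12 is an established mouse line of muscle precursors that stop dividing and fuse into myotubes when serum is lowered. The study mapped macroH2A in myoblasts at day 0 of differentiation medium (2% horse serum) and in myotubes at day 5, with 1 library each, and had an input sample for each day that was not analysed here. The antibody label reads macroH2A with no isoform given, and no genotype or further agent is named for either group. All cells are of this cell line, so both maps describe cultured C2C12 cells and not muscle tissue. The day 0 list held 30016 islands with 24365482 reads and the day 5 list 29473 islands with 29619426 reads. Reads outside islands are not in these totals, so they do not give sequencing depth. With 1 library a day no test between days could be made. Differences between days below are differences between these 2 lists, and shares of windows are complete counts over the lists, with no sampling interval.

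MacroH2A is a variant of histone H2A whose tail ends in a globular macrodomain, held outside the nucleosome core by a linker. It is known to be enriched on the inactive X chromosome of female cells and to form broad domains on autosomes that often overlap chromatin marked by Polycomb. An island is a stretch of enriched bins joined across short gaps, so a window without one is a window in which no stretch passed the caller's threshold. It is not a measurement that macroH2A was absent, since reads outside islands are not in the lists. How much of each window can be covered by uniquely placed short reads was not analysed here.

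The island-free windows were unevenly spread over the chromosomes. Chromosome 7 had the most, with 53 of 149 windows (35.6%), followed by chromosome 14 with 36 of 121 (29.8%). Chromosome 6 had 35 of 146 (24.0%) and chromosome 12 had 28 of 117 (23.9%). Chromosomes 4 and 16 came next with 21.1% each, from 32 of 152 and 20 of 95 windows. Chromosomes 18, 5 and 1 stood at 18.4%, 18.1% and 17.6%, and chromosomes 8, 3 and 9 at 16.4%, 16.0% and 14.9%. The 5 chromosomes with the most island-free windows (7, 14, 6, 1 and 4) held 48.6% of them on 31.7% of all windows.

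At the other end, 7 chromosomes had fewer than 10% of their windows without an island. Chromosome 2 had 17 of 178 (9.55%), chromosome 13 had 11 of 117 (9.40%) and chromosome 11 had 7 of 118 (5.93%). Chromosome 17 had 5 of 91 (5.49%), chromosome 19 had 2 of 58 (3.45%) and chromosome 10 had 4 of 126 (3.17%). Chromosome 15 had none among its 100 windows. Its longest island-free gap, 1375.2 kb from 46215601 to 47590800, was the shortest such maximum of the 19 autosomes. Without chromosome 7, 338 windows remained on the other 17 chromosomes that had any.

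**Figure D1:**
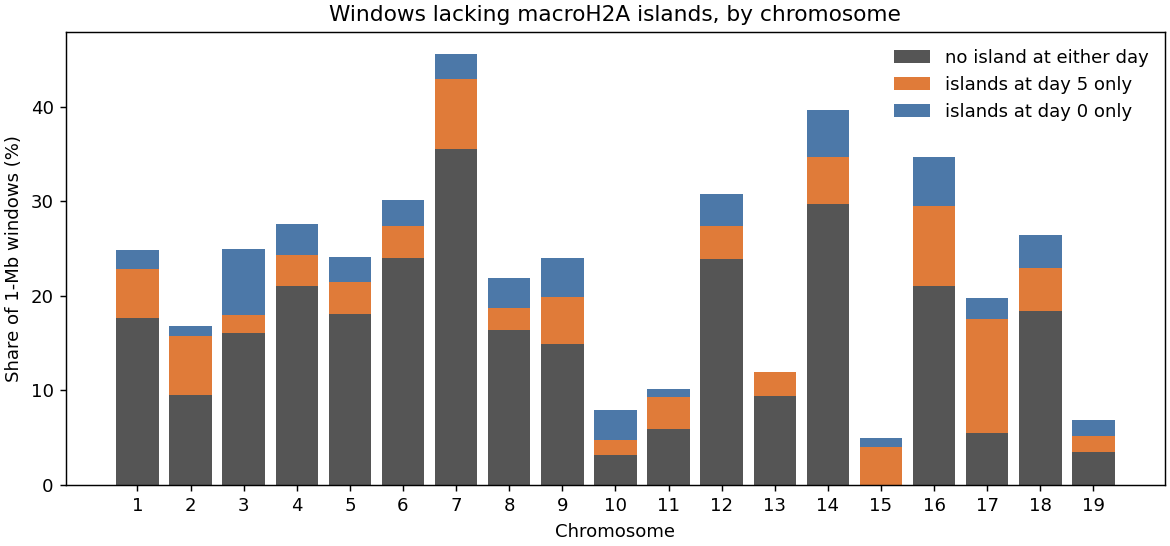
Share of 1-Mb windows (%, y axis) without islands on each autosome (x axis). Grey bars are windows bare at both days, orange segments windows with islands at day 5 alone and blue segments windows with islands at day 0 alone. Chromosome 7 has the tallest grey bar at 35.6%, and chromosome 15 has none.

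Chromosomes with many island-free windows were not all thinly covered elsewhere. On chromosome 7 the windows that did hold an island had a median covered length of 27.9 kb in myoblasts and 41.1 kb in myotubes, the lowest of any autosome in either list. On chromosome 14 the same medians were 101 kb and 119 kb, close to the autosomal medians of 103 kb and 116 kb. Chromosome 6 had 87.6 kb and 121 kb. Chromosome 9, with only 14.9% of windows bare, had 46.8 kb and 59.4 kb. The large bare share on chromosome 14 thus lay beside ordinary coverage, whereas on chromosome 7 both bare and sparsely covered windows were common.

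The bare share followed the number of genes per window on some chromosomes and not on others. Symbols were counted per chromosome in a RefSeq table of another build (GRCm38.p6), which cannot place genes in mm9 windows, so no gene is assigned to a window here. Chromosomes 7 and 11 had nearly the same number of protein-coding genes per window, 13.6 each, with 35.6% and 5.93% of windows bare. Chromosomes 12, 18 and 1 had the fewest genes per window (5.80, 5.87 and 6.24), with 23.9%, 18.4% and 17.6% of windows bare. Chromosome 19 had 12.2 genes per window and 3.45% bare, chromosome 17 had 11.6 and 5.49%, and chromosome 2 had 10.0 and 9.55%. Of chromosomes 11, 7, 19, 17 and 2, which had the most genes per window, only chromosome 7 had more than 10% of windows bare. Chromosomes 10, 15 and 13 had fewer genes per window (7.94, 7.76 and 7.09) and also low bare shares, 3.17%, 0% and 9.40%.

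Receptor families that lie in long tandem arrays, well known in the mouse genome, were counted in the same way. Olfactory receptors, the odorant receptors of the nasal epithelium, numbered 1104 on autosomes. Chromosome 2 held the most, 287, with 9.55% of windows bare, and chromosome 7 held 239. Vomeronasal receptors, which detect pheromones, numbered 354, and 178 of them were on chromosome 7, 60 on chromosome 6 and 46 on chromosome 17. Chromosomes 12, 15 and 16 had none, with 23.9%, 0% and 21.1% of windows bare. The same held for chromosomes 2, 8, 9, 11 and 19, with 9.55%, 16.4%, 14.9%, 5.93% and 3.45% bare. Genes named Zfp, many of which encode zinc finger transcription factors, numbered 388, with 93 on chromosome 7 and 46 on chromosome 17. Immunoglobulin and T cell receptor V segments, which are joined in lymphocytes to make antigen receptors, numbered 547 with pseudogenes, and 197 lay on chromosome 6, 195 on chromosome 12 and 145 on chromosome 14. These 3 chromosomes had the highest bare shares after chromosome 7. Of other families counted, keratins peaked on chromosome 11 (50, 5.93% bare), and histone and prolactin genes on chromosome 13 (53 and 25, 9.40%). Defensins led on chromosome 8 (53, 16.4%) and protocadherins on chromosome 18 (59, 18.4%). Genes named Hox and Klr led on chromosome 6 (11 and 29, 24.0%) and Skint and Mup on chromosome 4 (11 and 24, 21.1%). Ugt led on chromosome 5 (10, 18.1%), and Cyp on chromosomes 4 and 19 (18 each, 21.1% and 3.45%). Chromosome 17, rich in vomeronasal and Zfp genes, had few bare windows. These are counts per chromosome and do not show that the genes lie in bare windows.

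Runs of adjacent island-free windows were counted next. The 391 windows formed 204 runs, of which 114 were a single window. There were 35 runs of 2 windows, 31 of 3, 14 of 4, 7 of 5, and 1 each of 6, 7 and 10. The 90 runs of at least 2 windows held 277 windows (70.8%), and the 55 runs of at least 3 held 207 (52.9%). A window just after an island-free one was itself island-free in 187 of 391 cases (47.8%), against 201 of 1992 (10.1%) after a window with an island. Bare windows thus tended to lie side by side.

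**Figure D2:**
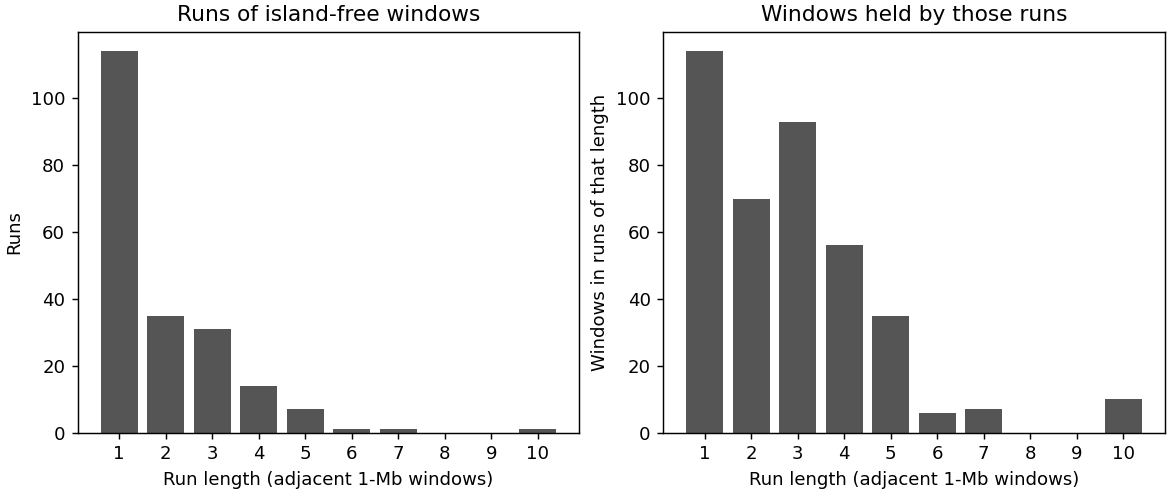
Number of runs (left y axis) and number of windows in those runs (right panel's y axis) against run length in adjacent 1-Mb windows (x axes). The left panel falls from 114 single windows to 1 run of 10, and in the right panel the 31 runs of 3 windows hold 93 windows.

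The longest run was on chromosome 7 from 40 to 50 Mb, 10 windows. The gap between the flanking islands of either list ran from 39022201 to 50591400, 11569.2 kb. The gap was 12015 kb in the day 0 list alone and 11607 kb in the day 5 list alone, so both lists left nearly the same stretch bare. Next was chromosome 6 from 74 to 81 Mb, 7 windows, in a gap from 73327201 to 81034800. That gap measured 7771.2 kb at day 0 and 8088 kb at day 5. The run of 6 windows lay on chromosome 3 from 43 to 49 Mb, in a gap from 42576001 to 49446600, with 6974.4 kb at day 0 and 6870.6 kb at day 5. In these 3 runs the 2 lists differed by at most 408 kb in gap length.

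Runs of 5 windows numbered 7, and 3 of them were on chromosome 14. On chromosome 14 from 81 to 86 Mb the gap of both lists together ran from 80176801 to 86326800, and from 110 to 115 Mb it ran from 109378801 to 115413600. The third began at the first window of chromosome 14, from 3 to 8 Mb, with no island of either list on its low side. Chromosome 7 had a pair of them, from 60 to 65 Mb (gap 59150401 to 65640600) and from 7 to 12 Mb (gap 6865801 to 12595800). The others were on chromosome 12 from 61 to 66 Mb (gap 60049201 to 66003600) and on chromosome 4 from 35 to 40 Mb (gap 34940401 to 40233000). With the 3 longer ones these make the 10 longest runs, and 6 of the 10 were on chromosomes 7 and 14.

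In 3 of these 5-window runs 1 list was bare over a stretch about 2 to 3 Mb longer than the other. On chromosome 14 from 110 to 115 Mb the gap was 8829.6 kb at day 0 and 6057 kb at day 5. On chromosome 7 from 60 to 65 Mb it was 8473.8 kb at day 0 and 6490.2 kb at day 5. The reverse held on chromosome 12 from 61 to 66 Mb, with 5954.4 kb at day 0 and 8912.4 kb at day 5. The run on chromosome 7 from 7 to 12 Mb ended at a myoblast island of 0.6 kb with 125 reads, from 12595801 to 12596400. The day 5 list had no island there, and its gap ran on from 6865801 to 16848600, 9982.8 kb. A single narrow island in 1 list thus ended the run there.

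Long bare stretches were also listed for each day alone, a choice made after the values were seen. Gaps of at least 5 Mb on autosomes numbered 25 in the day 0 list and 19 in the day 5 list, with total lengths of 169 Mb and 132 Mb. The second longest at day 0, on chromosome 14 from 87967801 to 99691200, was 11723.4 kb long, and the day 5 list had 16 islands in it covering 103 kb. On chromosome 5 from 54546601 to 63997800 the day 0 list was bare over 9451.2 kb, where the day 5 list had 3 islands covering 18.6 kb. The opposite case was chromosome 14 from 37927801 to 45877200, bare at day 5 over 7949.4 kb with 3 islands covering 19.2 kb at day 0. The other day's islands covered 0.880%, 0.197% and 0.242% of these 3 stretches.

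Windows bare at both days were set beside those bare at 1 day. At day 0, 497 autosomal windows (20.7%) held no island, and at day 5, 461 (19.2%). Of the 497, 391 (78.7%) were also bare at day 5, and of the 461, 84.8% were also bare at day 0. With the day 5 list cut to the covered length of the day 0 list by keeping its densest islands, 484 windows were bare at day 5. The 106 windows bare at day 0 alone had a median of 7.8 kb covered at day 5 and at most 92.4 kb, and 63 of them held a single myotube island. The 70 windows bare at day 5 alone had a median of 6.6 kb at day 0 and at most 41.4 kb, and 43 held a single myoblast island. Windows bare at 1 day were thus sparsely covered at the other. Of the 19 autosomes, chromosome 17 had the widest difference for its size, with 16 windows bare at day 0 and 7 at day 5. Chromosome 3 went the other way, with 28 bare at day 0 and 36 at day 5.

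Just outside the rule, 106 windows held 1 island in the 2 lists together, 43 at day 0 and 63 at day 5, with a median of 4.8 kb covered. The 5 windows with the least covered length were chromosome 7 from 12 to 13 Mb (0.6 kb, day 0), chromosome 4 from 75 to 76 Mb (0.6 kb, day 0), chromosome 1 from 101 to 102 Mb (0.6 kb, day 5), chromosome 2 from 89 to 90 Mb (1.2 kb, day 5) and chromosome 18 from 3 to 4 Mb (1.8 kb, day 0). Their islands held 81 to 312 reads. In chromosome 1 the 0.6 kb were the tip of a 4.2 kb island that crossed from the window into the next. Just inside the rule, 7 windows had an island within 10 kb of their border, the nearest at 2.6 kb on chromosome 14 from 96 to 97 Mb. Among the 384 members with islands on both sides the median distance to the nearest island was 494 kb, and 94 lay at least 1 Mb away. The other 7 had no island of either list on the low side. By the higher of the 2 days, 150 further windows (6.24%) had up to 10 kb covered and 345 (14.4%) had 10 to 50 kb. Sparsely covered windows thus lay just outside the class, but fewer had up to 10 kb than the 391 with none.

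The grid itself hides some bare sequence. Independently of windows, 308 autosomal gaps of at least 1 Mb between islands of either list added up to 691 Mb, 28.7% of the span from 3 Mb to the last islands. Of these gaps 201 held at least 1 whole window, and 107 held none although they reached up to 1911 kb. Gaps of at least 2 Mb numbered 126 and gaps of at least 5 Mb numbered 15. The 16.3% of windows is therefore a lower count of bare sequence than the gaps give.

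Position along the chromosome was described in 5 equal parts of each chromosome's windows, counted from the centromeric end, which in mouse autosomes is at the low coordinates. From the first to the last part, 19.2%, 17.7%, 20.9%, 14.6% and 9.0% of windows were bare. Without chromosome 7 these shares were 17.1%, 15.1%, 20.4%, 13.8% and 8.44%, so the last part was the lowest with and without it. Among the first 5 windows of the 19 autosomes 14 of 95 (14.7%) were bare, and 5 of these 14 were on chromosome 14. Among the last 5 windows 9 of 95 (9.47%) were bare, 3 on chromosome 2 and 2 each on chromosomes 4, 12 and 18. The distal run on chromosome 2, from 175 to 179 Mb, held 4 windows in a gap from 174390001 to 179607600. Windows beyond the last island of a chromosome are outside the rule.

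For the runs at chromosome ends the order of genes, but not their coordinates, was read from the GRCm38.p6 table, a choice made after the values were seen. Of the first 100 genes of chromosome 14, 78 had provisional Gm symbols, which are given to gene models without an assigned name. The other 37 chromosome ends had 14 to 67. Of the last 100 genes of chromosome 12, 37 were V segments or their pseudogenes, from the immunoglobulin heavy chain locus that lies at the distal end of that chromosome. Whether these genes fall in the bare windows cannot be read from another build. Among the last 100 genes of chromosome 10, 69 had olfactory receptor symbols, and none of its last 5 windows was bare. The grid stops at the last full window before the end of the last island, so bare sequence beyond it could not be counted. Whether those genes lie in covered or bare sequence is therefore not shown.

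How sharply islands resumed was measured first by windows. The 371 windows next to a run had a median of 25.8 kb covered at day 0 (quartiles 6 and 69.6 kb) and 39 kb at day 5 (11.4 and 92.2 kb). The 262 windows at a distance of 2 had 89.4 kb and 113 kb, and the 198 at a distance of 3 had 107 kb and 125 kb. At a distance of 4 the medians were 128 kb and 142 kb, and at 5 they were 120 kb and 112 kb. Over 5 windows away, still on chromosomes with bare windows, 803 windows had 146 kb and 154 kb. All 2011 windows with an island had 103 kb and 116 kb. Counted by windows, the largest step in the medians thus lay between the adjacent window and the next, with smaller rises up to a distance of 4. At 404 edges the nearest island of either list lay a median of 443 kb past the border, so part of that step is by construction.

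**Figure D3:**
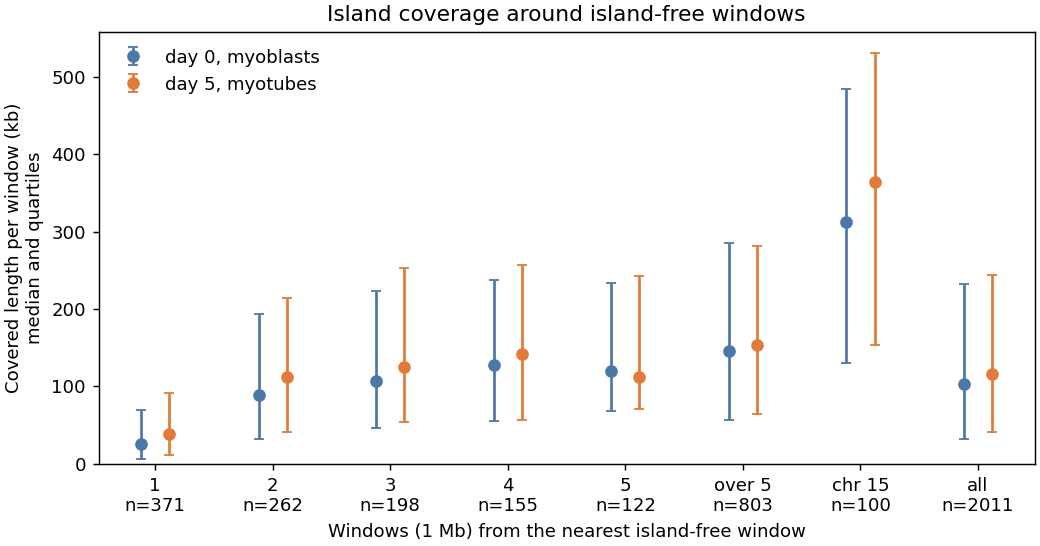
Covered length per 1-Mb window (kb, y axis; points are medians, bars the quartiles) against the distance in windows from the nearest island-free window (x axis), with chromosome 15, which has no such window, and all windows with an island. Medians go from 25.8 kb (day 0) and 39 kb (day 5) in adjacent windows to 89.4 kb and 113 kb in the next ones.

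An adjacent window can share its megabase between bare and covered sequence, so the edge was also placed at the first island of either list. At 404 edges of runs both lists had an island on that side. The first 100 kb outward from that island's near end were covered on average over 11.3% at day 0 and 14.4% at day 5, which includes the first island by construction. From 100 kb to 2 Mb outward the mean per 100 kb stayed between 7.68% and 10.7% at day 0 and between 9.69% and 11.8% at day 5. The means over all autosomal windows were 12.8% and 13.8%, and over windows with an island 15.3% and 16.4%. Beyond the first island 44.8% to 59.4% of the edges had a 100-kb bin bare at both days, against 48.9% of such bins in all autosomal windows and 38.9% in windows with an island. From 100 kb outward mean coverage was thus flat over 2 Mb and below the mean of all autosomal windows. The share of bare bins was below that of all windows from 100 to 300 kb (44.8% and 48.0%). In every bin from 300 kb to 2 Mb it was above it (49.5% to 59.4%). This profile also crosses neighbouring runs, whereas the windows above were sorted by their nearest run.

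**Figure D4:**
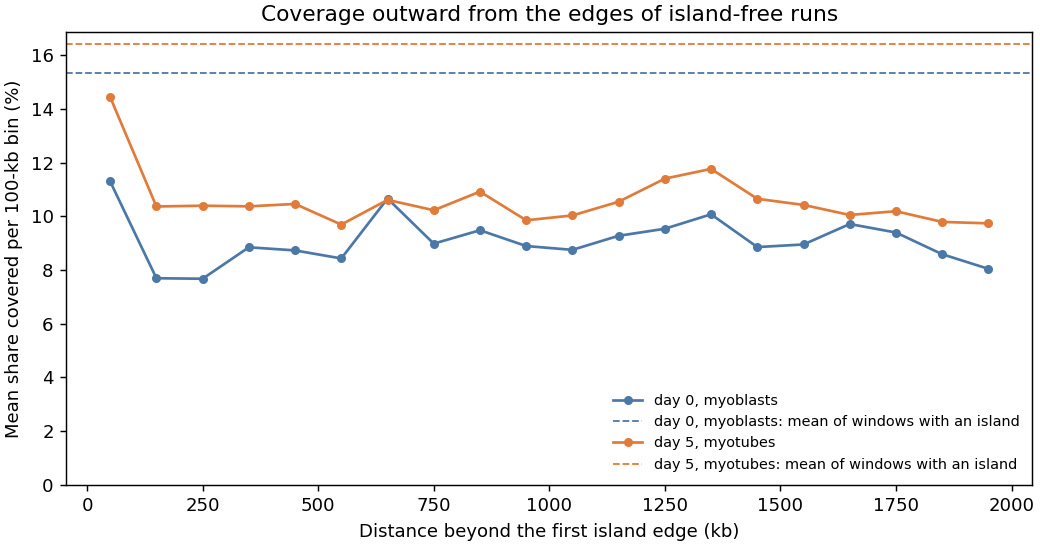
Mean share of each 100-kb bin covered by islands (%, y axis) against distance outward from the first island of either list (kb, x axis), over 404 run edges. Dashed lines are the means of autosomal windows with an island, 15.3% at day 0 and 16.4% at day 5, and both curves lie below them in all 20 bins.

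The first islands at the edges were narrow. At day 0 the 372 first islands had a median width of 5.4 kb, against 7.2 kb over all 28931 autosomal islands, and at day 5 the 379 first islands had 6 kb against 7.8 kb. Islands over 20 kb made up 1.08% of first islands at day 0 and 3.69% at day 5, against 10.6% and 12.6% of all. Their median density at day 0 was 70.1 reads per kb, against 73.1 for all islands, and at day 5 it was 78, against 81.1. First islands overlapped an island of the other day less often in these lists, in 51.9% of cases at day 0 and 40.4% at day 5, against 72.5% and 68.7% of all autosomal islands. The rule bears on this comparison, since an island of 1 list alone in a bare stretch ends a run and becomes a first island. Narrow islands were also less often shared over the whole list. Among islands up to 5 kb, 50.9% of first islands and 60.0% of all autosomal islands overlapped the other list at day 0, and 23.2% and 52.5% at day 5. A wide first island was seen on chromosome 4 beyond 113 Mb, where a myotube island of 139 kb lay 972 kb past the run.

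Past the first island, or the overlapping islands of both lists, the next island lay a median of 52.2 kb away (quartiles 11.9 and 198 kb). The median over all 32164 autosomal gaps was 8.4 kb. At 201 of 404 edges (49.8%) the next island was within 50 kb, and at 55 (13.6%) it was more than 500 kb away. In 33 cases it was more than 1 Mb away, so that a lone island stood between bare stretches. The most isolated by this measure was an 8.4 kb myotube island on chromosome 14 from 109370401 to 109378800, with 6034.8 kb of bare sequence beyond it. Next came a 4.8 kb myoblast island on chromosome 12 from 60044401 to 60049200, with 5954.4 kb beyond it. The third was the 0.6 kb myoblast island of chromosome 7 described above, with 5730 kb. Then followed a 10.2 kb island on chromosome 3 from 75661201 to 75671400, with 5307.6 kb, and a 7.2 kb island on chromosome 5 from 58579801 to 58587000, with 4590 kb.

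Some runs bordered richly covered windows. The 5 first windows with the most covered length over both days each bordered a run of a single window. On chromosome 13 from 51 to 52 Mb, next to the bare window from 50 to 51 Mb, 577.6 kb were covered at day 0 and 524.2 kb at day 5. The window on chromosome 13 from 60 to 61 Mb had 541.2 kb and 375 kb, and that on chromosome 18 from 38 to 39 Mb had 303 kb and 395.4 kb. On chromosome 19 from 38 to 39 Mb the values were 347.4 kb and 263.4 kb, and on chromosome 4 from 95 to 96 Mb 368.8 kb and 240.6 kb. Their islands did not all begin at the border of the run. On chromosome 13 from 51 to 52 Mb the first islands lay 44.4 kb (day 0) and 50.4 kb (day 5) from it, but on chromosome 4 they lay 394.2 kb and 418.8 kb away and were 3.6 kb and 7.2 kb wide. In the window on chromosome 13 from 60 to 61 Mb the distances were 151.6 kb and 419.2 kb. Over 200 kb were covered in 12 of the 371 adjacent windows at day 0 and in 22 at day 5, against 598 and 656 of all 2011 windows with an island. Beside runs of at least 3 windows the median was 21 kb at day 0, and beside single windows it was 24 kb. At day 5 these medians were 30 kb and 38.1 kb, with upper quartiles of 73.8 kb and 103.5 kb. Over 100 kb were then covered at 15 of 109 edges of the longer runs and at 58 of 226 edges of single windows. No such contrast was seen at day 0, with 17 of 109 and 36 of 226 edges. The day 0 upper quartiles were 69.6 kb beside the longer runs and 66.6 kb beside single windows.

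The lists of both days were then compared at the edges. Of the 404 edges, the first day 5 island lay nearer to the run at 238, the first day 0 island at 151, and both at the same distance at 15. Leaving out those 15 ties, the day 0 island was the nearer at 38.8%. At 107 edges (26.5%) the near ends of the 2 lists' first islands lay within 10 kb of each other, and at 98 (24.3%) they overlapped. The median shift was 80.7 kb (quartiles 7.8 and 381 kb). It was over 500 kb at 81 edges, and at 61 of these the day 5 island was the nearer. Edges are not separate cases, since the same island or gap can enter at several of them. On chromosome 14 the day 0 gap from 87967801 to 99691200 spans the runs from 89 to 90, 91 to 92, 94 to 97 and 98 to 99 Mb. The largest shift, 9535.2 kb, was at the high side of chromosome 14 from 89 to 90 Mb, where the first island lay 156 kb away at day 5 and 9691.2 kb away at day 0. More edges had the nearer island at day 5 on 12 of the 18 chromosomes with bare windows, and at day 0 on 6.

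**Figure D5:**
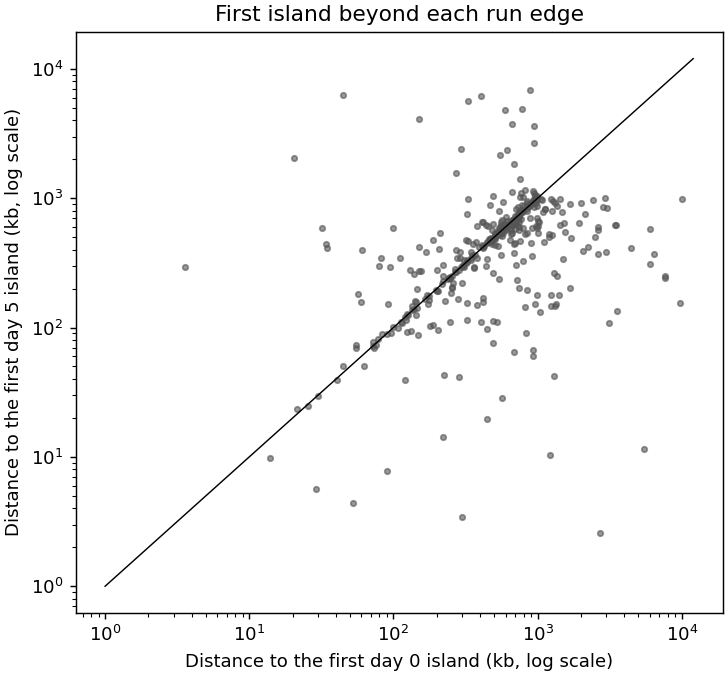
Distance from each of 404 run edges to the first day 0 island (kb, x axis, log scale) and to the first day 5 island (kb, y axis, log scale); the line marks equal distance. Points below the line (238) have the nearer island at day 5 and points above it (151) at day 0.

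Coverage next to the runs was also higher in the day 5 list. Summed over the 371 adjacent windows, covered length was 19.1 Mb at day 0 and 23.9 Mb at day 5, a ratio of 1.25. Over the other windows with an island the ratio was 1.06. It ranged from 1.00 to 1.15 at distances of 2 to 5 windows, highest at 3, and was 1.03 beyond. Leaving out each chromosome in turn kept the adjacent ratio between 1.23 and 1.28. Within chromosomes it was above that of the other windows on 14 of 18, the exceptions being chromosomes 9, 10, 13 and 19. With windows of 2 Mb the adjacent ratio was 0.998 times that of the other windows, so the difference of 1.18 times at 1 Mb was not seen on the coarser grid. The day 5 list also held 1.22 times the reads. With that list cut to the covered length of the day 0 list by keeping its densest islands, the adjacent ratio was 1.14 times that of the other windows.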

How the data were processed

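MacroH2A ChIP-seq libraries of C2C12 myoblasts (day 0) and myotubes (day 5) were analysed from the island lists. Each deposited row holds an island's position and its read count, a whole number that shows no scaling. Tools credited in the submitters' processing notes, with no roles stated, are SICER 1.1, MACS 1.4.2, Bowtie2 2.2.6 and CASAVA 1.4, on build mm9. SICER-style settings in the names of the deposited lists are W600 (600 bp windows), G1200 (gaps of 1200 bp) and FDR 0.01. Use of the inputs in calling is not given in the sources used here. Rows may be missing from a list.

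Islands were intersected with 1-Mb windows from 3 Mb on, at 1 bp. Coordinates count from 1. Runs, gaps and edges were computed with Python 3.11.15, NumPy 2.4.6, pandas 2.3.3 and SciPy 1.17.1, and plots with matplotlib 3.10.9. The code was tested on simulated data with known bare windows. Named by rule were the 10 longest runs, the 5 least covered windows, the 5 richest and 5 most isolated edges and every chromosome. The members and lists were chosen with earlier results of these data known. Genes were counted per chromosome and, at chromosome ends, by their order. None was placed in a window, because the annotation was of GRCm38.p6, and no sequence is printed for the same reason.

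Alternatives moved the grid by 500 kb, used windows of 500 kb or 2 Mb, dropped the 25% of islands with fewest reads, islands under 3 kb, chromosome 7 or the least dense myotube islands, counted windows under 10 kb as bare, and, added after seeing the data, left out islands over 400 reads per kb.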

Additional observations from a re-analysis of the deposited data

How the results depend on the processing

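Over 9 alternative settings, 82 of 107 recomputed values stayed within their tolerance, 24 moved and 1 reversed. Tolerance was the exact 95% interval for percentages and medians, 1.5 times for counts and run length, and the range over leaving out each chromosome for the ratio beside runs. Windows of 500 kb, by construction more often bare, gave 1255 bare windows (26.1%) in 465 runs, 1501 bare at day 0 and 1441 at day 5, with 49.5% bare on chromosome 7 and 4% on chromosome 15. Windows of 2 Mb gave 96 (8.03%) in 72 runs, 132 at day 0 and 112 at day 5, with 20.3% on chromosome 7. Without the 25% of islands with fewest reads, 19.6% of windows were bare. Counting windows under 10 kb as bare gave 22.5%, with 45.6% on chromosome 7 and 7% on chromosome 15, and medians of 39 kb (day 0) and 54.6 kb (day 5) in the first window. The longest run was 7 to 15 Mb over all settings, and the share of edges with the nearer island at day 0, ties left out, was 38.8% to 43.8%, including 42.9% with the myotube list cut to equal covered length. The day 5 to day 0 ratio beside runs, relative to other windows, was 1.11 to 1.18 except with windows of 2 Mb, where it reversed to 0.998, and the cause was not tested. With 1 library per day, variation between cultures was not measured. No paired analysis was possible because each group has 1 library.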

Other observations

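On the X chromosome, cut by the same grid, 57 of 163 windows (35.0%) held no island at either day, close to the 35.6% of chromosome 7. They formed 16 runs, the longest of 13 windows. Windows of X with an island had a median of 46.2 kb covered at day 0 and 32.1 kb at day 5, the reverse order of the autosomal 103 kb and 116 kb. Of the X windows 63 were bare at day 0 and 72 at day 5, whereas on autosomes more were bare at day 0 (497 against 461). With the day 5 list cut to the covered length of the day 0 list, the autosomal counts were closer, 497 against 484.

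Between the runs stood 34 single windows with an island and a bare window on both sides. Their median covered length was 10.2 kb at day 0 and 12.9 kb at day 5. Islands of both days were present in 19 of them, of day 0 alone in 6 and of day 5 alone in 9. A pair on chromosome 6 was better covered at both days, from 67 to 68 Mb with 112.2 kb and 105.6 kb and from 108 to 109 Mb with 111.6 kb and 108.6 kb.

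The autosomal island with the highest read density, a myotube island of 6 kb on chromosome 2 from 98502001 to 98508000 with 2991 reads per kb, was the sole island of its window, and the next window was bare. On chromosome 9 the first window, from 3 to 4 Mb, held 2 myotube islands at 491 and 493 reads per kb and no myoblast island, and the next window was bare. Input reads were not analysed. Without these islands both windows would have joined the class.

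Stretches of 20 windows with the most bare ones, chosen after the values were seen, were on chromosome 7 from 30 to 50 Mb (14 bare) and on chromosome 6 from 60 to 80 Mb (13 bare), followed by 11 each on chromosomes 1, 4, 5 and 14.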
